A study of Danio rerio with 370 samples.

Results

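The 6 genes described here, whose proteins shape the growing neuronal membrane and its actin skeleton, were followed across the adult zebrafish forebrain. They are the *MARCKS* copies ENSDARG00000004049 and ENSDARG00000008803, *marcksl1a* (ENSDARG00000039034), *marcksl1b* (ENSDARG00000035715), *gap43* (ENSDARG00000099744) and *tmsb* (ENSDARG00000054911). The *MARCKS* copies and *tmsb* were taken by identifier, and the others as all identifiers whose symbol is *MARCKSL1*, *marcksl1a*, *marcksl1b* or *GAP43*, which gave 6 of the 32266 genes in the count table. The copies of *MARCKS* share a symbol and are therefore called by their identifiers. Reads that align equally well to near-identical copies were left out, since the study counted uniquely aligned reads. Values of different genes are not compared because gene lengths were not used here.

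MARCKS proteins are anchored to the inner face of the plasma membrane by a fatty acid and by a basic domain that holds phosphoinositides, calmodulin and actin filaments. Protein kinase C phosphorylates this domain and releases it. MARCKS-like 1 proteins share the layout. GAP-43 is a growth cone protein that is also a kinase C substrate and a calmodulin binder, and is long known from regenerating fish axons. Beta-thymosins such as the product of *tmsb* bind actin monomers and keep them from polymerizing. All are known from neurons that extend axons.

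The cells came from adult *her4.1:mcherry;elavl3:gfp* fish, in which a radial glia promoter drives a red and a neuronal promoter a green protein, so all gates share both transgenes and no treatment. Cells of dissected forebrain were sorted singly into a radial glia (RG) gate with high red and no green signal, a newborn neuron (NBN) gate with low red and green signal, and a mature neuron (MN) gate with green signal alone. The NBN gate thus relies on red protein that outlasts the activity of its promoter. Each cell was amplified by SMART-seq2, without molecular identifiers. Sample titles carry a number from 1 to 5, which was read here as the fish. These cells came from another batch than bfx811. The cells of batch bfx811 were treated as 1 more fish, since the study counts 6 fish. MN gate cells came from batch bfx811 alone, and the sums per fish, not the single cells, were the replicates.

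Of 370 cells, 264 passed the filters, namely 73 of 171 RG, 164 of 169 NBNs and 27 of 30 MNs by gate. The study also kept 264 cells, but with other counts per gate, so the sets of cells are not the same. A fish contributed 5 to 23 RG gate cells and 26 to 28 NBN gate cells. The median depth was 211548, 270898 and 191372 reads per cell in the RG, NBN and MN gates. Radial glia markers summed to between 17835 and 38240 counts per 1000000 reads of a sum (CPM) among RG and 496 to 2547 among NBNs. Neuronal markers gave 305 to 1398 CPM among RG and 8473 to 12111 among NBNs. Of the 5 microglia markers found, none was at 0 in either gate, and their sum reached 2008 CPM among RG and 108 CPM among NBNs. The 3 oligodendrocyte lineage markers summed to between 0 and 992 CPM in the NBN gate, where 16 of 164 cells had an *olig2* read, and 8 of 73 RG gate cells had an *elavl3* read. The results for the gates are therefore also given without those cells where a call or direction depends on them.

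The first question was which of these genes differ between radial glia and the neurons that arise from them. The *MARCKS* copy ENSDARG00000008803 and *marcksl1b* were higher in the NBN gate in each of the 6 fish. The levels of *marcksl1a* overlapped between the gates. *tmsb* and the copy ENSDARG00000004049 were higher in the NBN gate on average, but the tests of their levels did not pass. *gap43* had no read in any cell.

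The level of ENSDARG00000008803 in fish 1 to 5 and that of batch bfx811 was 462, 652, 55.9, 524, 118 and 235 CPM in the RG gate. The NBN gate of the same fish held 2148, 1794, 2733, 1533, 2383 and 876 CPM. The lowest NBN value was above the highest RG value. The means were 341 ± 239 and 1911 ± 661 CPM (SD, n = 6), and the log2 fold change was 2.68 ± 0.56 (SE, edgeR's quasi-likelihood test, Benjamini-Hochberg adjusted p = 0.00414). Its reads were found in 33 of 73 RG gate cells and 141 of 164 NBN gate cells. The share per fish was 42.3 points higher in the NBN gate, in 6 of 6 fish (exact two-sided sign-flip permutation test, p = 0.03125, the smallest that 6 fish allow; not adjusted over the genes). With each cell thinned to 20000 reads the difference was 42.2 points.

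For *marcksl1b* the RG gate held 1439, 1011, 864, 1365, 1754 and 822 CPM in the same order of fish. The NBN gate held 3996, 4378, 3475, 4581, 3810 and 2981 CPM. The gates did not overlap here either, and the fish of batch bfx811 was lowest in both. The means were 1209 ± 370 and 3870 ± 588 CPM (SD, n = 6), with a log2 fold change of 1.93 ± 0.29 (edgeR, adjusted p = 0.000313). Every one of the 164 NBN gate cells had a *marcksl1b* read, against 61 of 73 RG gate cells, and the share differed by 18.4 points in 6 of 6 fish (exact permutation test, p = 0.03125). *marcksl1b* was thus read in most cells of both gates, with medians of 956 CPM per RG and 3467 CPM per NBN.

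These 2 genes were called out of the 5 members tested, all in one direction. The study names *tmsb* and a *MARCKS* copy as markers of a group of newborn neurons among these cells. The members were chosen with earlier results of these data known, so this count is a description and not independent evidence. Over all 8393 genes tested, 8.47% were called and 6.66% were called with a higher level in the NBN gate. Levels per fish did not overlap between the gates for 12.6% of the genes and for the same pair of members. The median log2 fold change of all genes was 0.69, and 0.48 with the size factors of DESeq2 in edgeR, so both members rose beyond the shift of all genes under either scaling. With the fish as a block the median of all genes was 2.06, and *marcksl1b*, with 1.99, lay below it, while ENSDARG00000008803, with 2.96, lay above it. Both were called in that fit too.

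The level of *marcksl1a* was 399, 1091, 930, 930, 880 and 262 CPM in the RG gate. It was 1319, 888, 1189, 1000, 807 and 383 CPM in the NBN gate. Fish 2 and fish 5 had the higher level in the RG gate and the others in the NBN gate, and the ranges overlapped along most of their length. The log2 fold change of 0.57 ± 0.43 (edgeR, adjusted p = 0.598) lay below the median of all genes, as did the value of 0.32 with the other size factors. Reads were found in 58 of 73 RG gate cells and 135 of 164 NBN gate cells, and the share differed by 0.567 ± 15.7 points (SD, n = 6 fish; exact permutation test, p = 1). In 5 of 6 fish the share was lower in the NBN gate, and fish 1 alone had the opposite sign, with a difference of 31.7 points. With each cell thinned to 20000 reads the share was higher in 3 fish and lower in 3, and the difference was 3.66 points.

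*tmsb* stood at 238, 246, 31.5, 61.8, 46.8 and 168 CPM in the RG gate. The NBN gate held 446, 294, 462, 401, 360 and 195 CPM. Each fish was higher in the NBN gate than in its own RG gate, while the gates overlapped through the fish of batch bfx811. The means were 132 ± 97.9 and 360 ± 101 CPM (SD, n = 6). The log2 fold change of 1.65 ± 0.62 did not pass (edgeR, adjusted p = 0.136). Reads were found in 33 of 73 RG gate cells and 96 of 164 NBN gate cells. The share differed by 13.8 ± 25.8 points (SD, n = 6 fish; exact permutation test, p = 0.156), and fish 2 went the other way by -26.3 points.

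ENSDARG00000004049 was the sparsest of the genes with reads. In the RG gate it had 0, 19.7, 0, 82.2, 46.2 and 8.76 CPM, and in 3 of the 4 fish with reads all came from 1 cell. In the NBN gate it had 79.1, 54.9, 92.5, 68.9, 47.7 and 48.6 CPM, with 40 of 164 cells carrying a read against 6 of 73 in the RG gate. The levels overlapped through fish 4 and gave a log2 fold change of 1.48 ± 1.31 (edgeR, adjusted p = 0.681). The share of cells was 17.4 ± 10.8 points higher in the NBN gate, in 6 of 6 fish (SD, n = 6 fish; exact permutation test, p = 0.03125), and 15.5 points higher with the cells thinned. For this copy more of the cells had a read in the NBN gate of each fish, while the level in the RG gate was set by few cells. The p of 0.03125 is the smallest that 6 fish allow and is not adjusted over the genes. How many of all genes have a higher share in each fish was not counted.

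*gap43* was listed at 0 in all 370 cells, which together held 76747020 reads. Whether the annotation or the counting let reads be assigned to this gene was not tested, so the 0 is no measure of its RNA. As a count alone, 0 of 370 cells allows a share of up to 0.811% of cells with a read. It was 1 of 9080 genes without a read in any cell, and it entered no test. Intervals and limits cover counting error only, since amplified reads are not independent molecules.

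**Figure D1:**
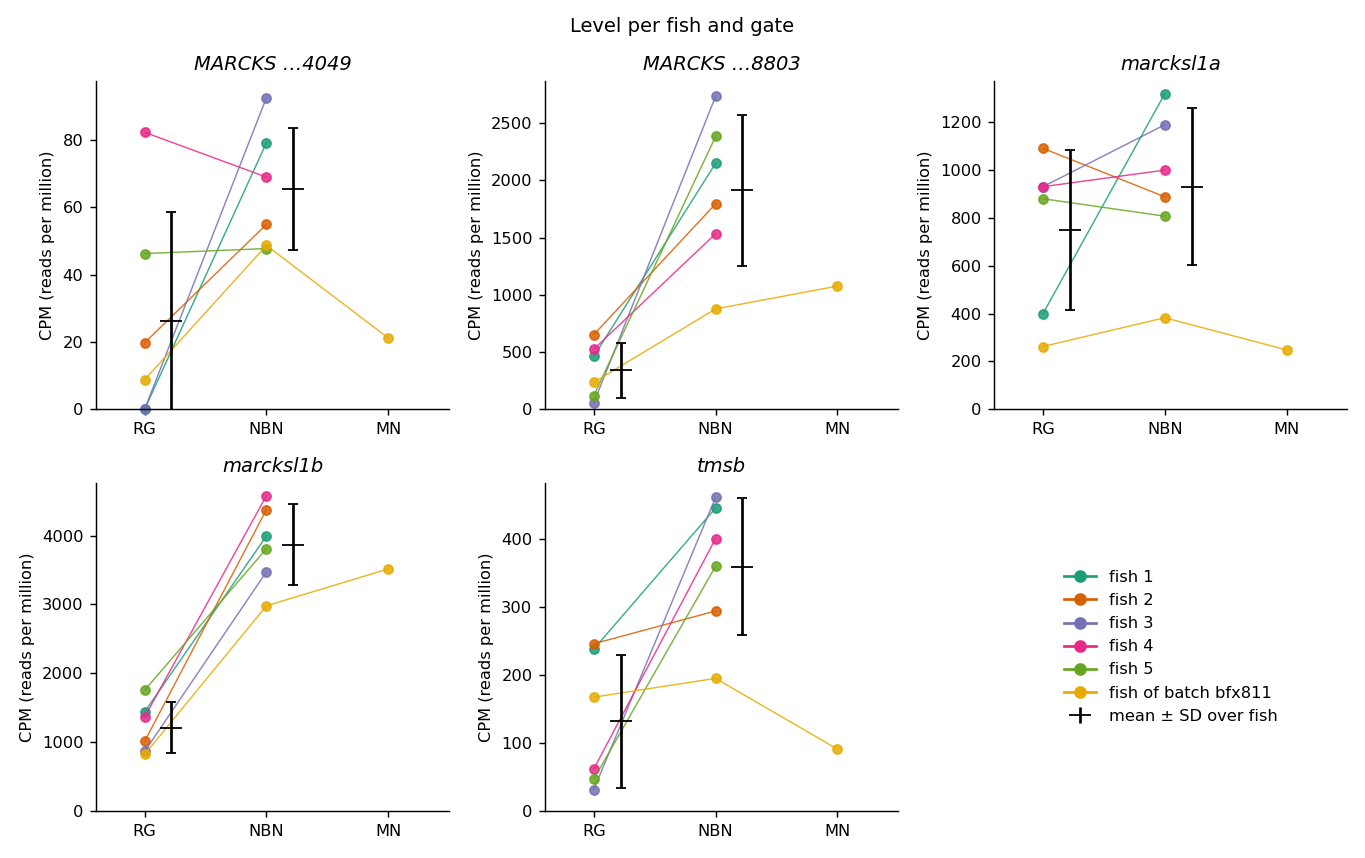
Level of the 5 genes with reads in each gate, as CPM (vertical axis, linear, a scale of its own in each panel), with one colored point per fish, lines joining the gates of a fish and black bars for the mean and SD over 6 fish (cut off at 0). The points of ENSDARG00000008803 and *marcksl1b* do not overlap between the RG and NBN gates, those of *marcksl1a* do, and the MN gate has a single point, from the fish of batch bfx811.

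**Figure D2:**
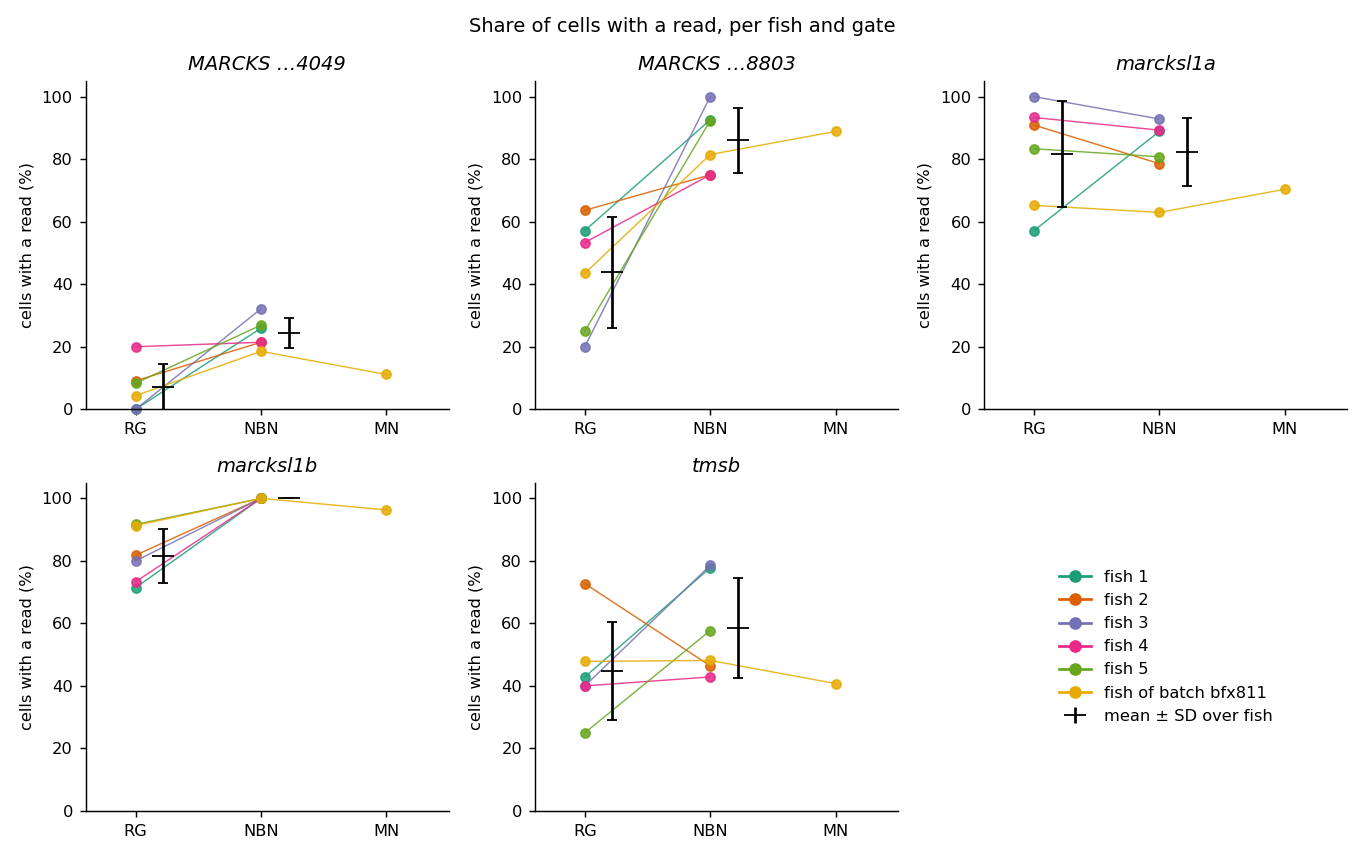
Share of cells with at least 1 read of each gene in percent (vertical axis), by gate, with colored points and lines for the fish and black bars for the mean and SD over 6 fish. *marcksl1b* reaches 100% in the NBN gate of every fish, and *marcksl1a* has a mean of 81.7% among RG and 82.2% among NBNs.

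The next question was how the genes stand in mature neurons, for which a single sum of 27 cells can be set beside the NBN gate of the same fish. There is no test with 1 sum a gate, and the intervals cover counting error only (95%, Poisson counts). ENSDARG00000008803 had 1076 CPM among MNs beside 876 CPM among NBNs, a ratio of 1.23 (1.17 to 1.28). *marcksl1b* had 3517 and 2981 CPM, a ratio of 1.18 (1.15 to 1.21). Both were higher in the MN gate by less than the SD between the NBN sums of the 6 fish. *tmsb* had 91.0 CPM among MNs beside 195 CPM among NBNs, a ratio of 0.466 (0.413 to 0.526). *marcksl1a* had 248 and 383 CPM, a ratio of 0.649 (0.599 to 0.702), and ENSDARG00000004049 had 21.1 and 48.6 CPM, a ratio of 0.435 (0.337 to 0.559). The difference exceeded the SD between fish for *tmsb* and ENSDARG00000004049 and not for *marcksl1a*. Of the 4990 genes at 50 CPM or more in either gate, 25.9% were lower at least 2-fold in the MN gate, and *tmsb* was 1 of the 4 members among these genes that was. ENSDARG00000004049 was under 50 CPM in both gates, and after thinning its ratio had an interval of 0.152 to 1.12. Reads were found in 3 of 27 MN gate cells for ENSDARG00000004049, 24 for ENSDARG00000008803, 19 for *marcksl1a*, 26 for *marcksl1b* and 11 for *tmsb*. In the NBN gate of this fish 16 of 27 cells were *EBF3*-high and 4 were *tubb5*-high, as defined below.

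Ordered from low to high, the level of ENSDARG00000008803 followed the order RG, MN, NBN, and the MN value lay inside the range of the NBN fish. The same order held for *marcksl1b*, again with MN inside the NBN range. Within the fish of batch bfx811 alone, the values of both ran upward from RG over NBN to MN gate. For *tmsb* and ENSDARG00000004049 the order by means over fish was MN, RG, NBN, with the MN value inside the range of the RG fish. Within the fish of batch bfx811 *tmsb* kept this order, while ENSDARG00000004049 ran from RG over MN to NBN gate. For *marcksl1a* the MN value of 248 CPM lay just under the lowest RG value of 262 CPM, which came from the same fish.

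The RG gate was then divided by reads of *ccnd1* (ENSDARG00000101637), which encodes cyclin D1, a driver of the entry into the cell cycle. This follows the definition of proliferating and quiescent radial glia used in the study, which is at least 1 read against none. The study applied it to its own radial glia cells, which are not the same set as the RG gate cells kept here. Of the latter, 31 cells had *ccnd1* reads while 42 had none. The ccnd1-positive cells were the shallower ones, with a median of 187497 against 282001 reads. An *elavl3* read was found in 2 of 31 and 6 of 42. Fish 3 had a single ccnd1-positive cell and gave no sum for that class, so 5 sums were set against 6.

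In the pooled cells, reads of the *MARCKS* copies, *marcksl1b* and *tmsb* were found in a larger share of the ccnd1-positive cells and those of *marcksl1a* in a smaller one, and no test over fish passed for any member. The study itself reports *tmsb* and a *MARCKS* copy as enriched in its proliferating radial glia, where it tested single cells with a rank-sum test. The counts below are therefore a description, and the tests over fish differ from that test in method and set of cells. *tmsb* had reads in 20 of 31 ccnd1-positive and 13 of 42 ccnd1-negative cells. The counts for ENSDARG00000008803 were the same, 20 of 31 and 13 of 42. ENSDARG00000004049 had reads in 5 of 31 and 1 of 42. *marcksl1b* had reads in 28 of 31 and 33 of 42. For *marcksl1a* the counts ran the other way, with 23 of 31 and 35 of 42.

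Over the 5 fish with both classes, the share of cells with ENSDARG00000008803 was 27.4 ± 45.7 points higher in the ccnd1-positive cells (SD; exact permutation test, p = 0.25), with 4 fish higher and fish 1 lower. For *tmsb* it was 21.6 ± 36.5 points higher, in 3 of 5 fish (exact permutation test, p = 0.375). With the cells thinned it was 16.6 points higher on average, with 2 fish higher and 3 lower. For ENSDARG00000004049 it was 17.7 ± 15.8 points higher, in 4 fish, while fish 1 had no cell with a read (exact permutation test, p = 0.125). For *marcksl1b* it was 15.2 ± 20.1 points higher, in 5 of 5 fish (exact permutation test, p = 0.0625), and 12.4 points in 4 of 5 fish with the cells thinned (p = 0.3125 in the same exact test). For *marcksl1a* the mean difference was -2.73 ± 30.2 points (exact permutation test, p = 0.9375), though the share was higher in 3 fish and lower in 2. With the cells thinned the difference was 0.0758 points, so the fish do not carry the direction of the pooled counts. With 5 fish the smallest p is 0.0625, so this design cannot pass 0.05.

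The levels carried the same spread. ENSDARG00000008803 had 426, 854, 893, 406 and 220 CPM in the ccnd1-positive cells of fish 1, 2, 4, 5 and the fish of batch bfx811. The ccnd1-negative cells of all 6 fish had 484, 222, 0, 383, 0 and 250 CPM. Fish 2, 4 and 5 had the higher level in the ccnd1-positive cells and the classes overlapped. The log2 fold change was 1.23 ± 1.16 (edgeR, adjusted p = 0.999).

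*tmsb* had 135, 265, 79.0, 160 and 221 CPM in the ccnd1-positive cells. It had 303, 205, 15.2, 55.1, 0 and 116 CPM in the ccnd1-negative cells, among which fish 1 held the highest value of either class. *marcksl1a* had 328, 1045, 861, 139 and 192 CPM in the ccnd1-positive cells. It had 444, 1188, 1126, 957, 1185 and 330 CPM in the ccnd1-negative cells, and was lower in the ccnd1-positive cells of each of the 5 fish, while the ranges overlapped. The log2 fold change of *tmsb* was 0.69 ± 1.43, that of *marcksl1b* was -0.33 ± 0.51 and that of *marcksl1a* was -0.78 ± 0.70 (edgeR, adjusted p = 0.999 in each). ENSDARG00000004049 did not pass the filter on low counts. It was at 0, 29.0, 281, 158 and 17.8 CPM in the ccnd1-positive cells, and in the ccnd1-negative cells 1 cell of fish 4 held all its reads.

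None of the 4 members tested was called, where 0.0493% of 4058 genes were (2 genes, 81 at an unadjusted p under 0.05, 21 called by DESeq2). No member's levels were apart between the classes, which 1.06% of the genes were. The standard errors of ENSDARG00000008803 and *tmsb* are close to or above their changes, so these sums do not tell a difference from none.

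Counted together in single cells, 3 or more of the 5 genes with reads were found in 22 of 31 ccnd1-positive cells (71.0%) and in 13 of 42 ccnd1-negative cells (31.0%). With every cell thinned to 20000 reads the shares were 64.5% and 26.2%. Without cells that had an *elavl3* read they were 21 of 29 and 9 of 36 cells. These are counts over cells that share a fish, and give no test. What part depth, or the choice of a class by a detected read, has in them was not tested.

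**Figure D3:**
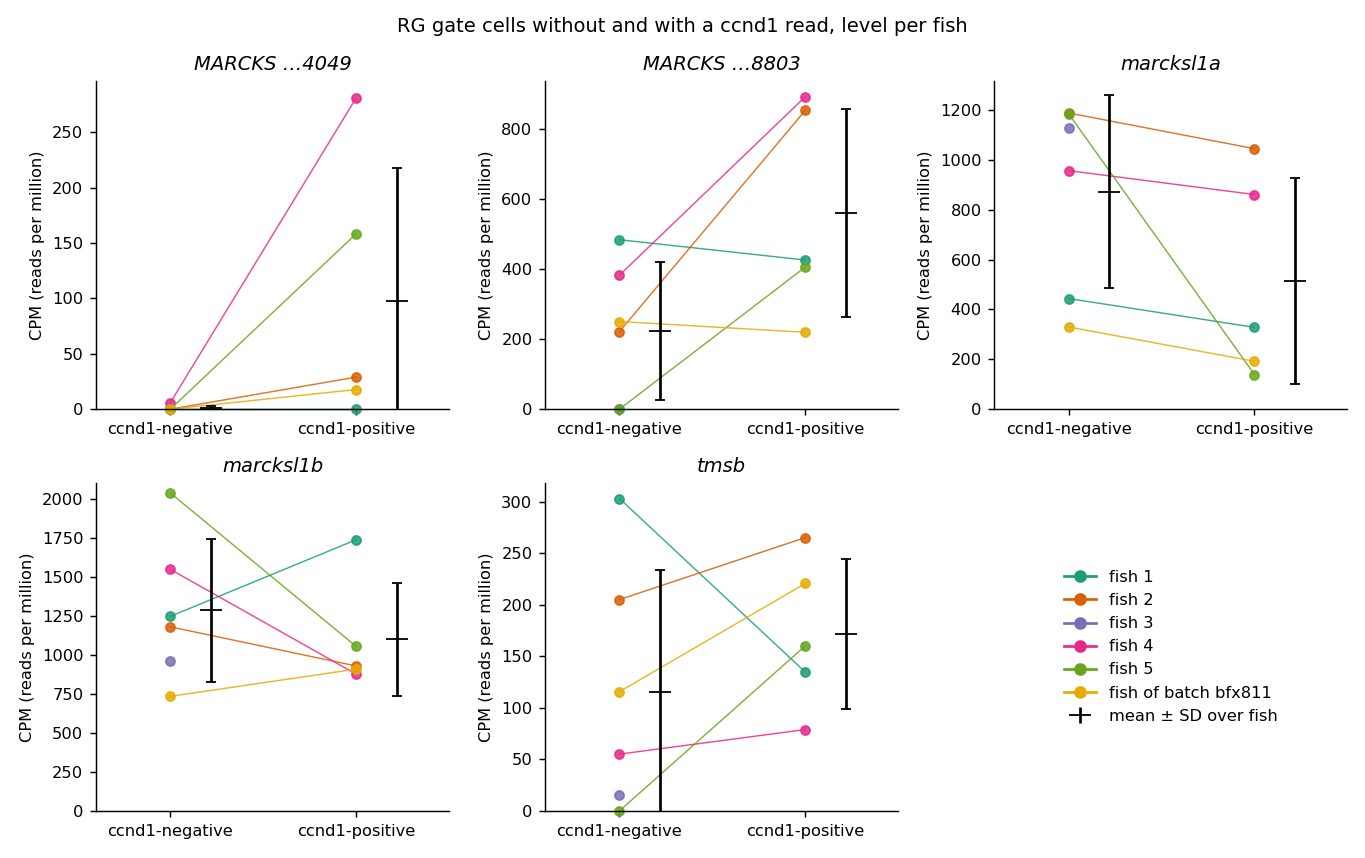
Level of the 5 genes with reads in RG gate cells without (left) and with (right) a *ccnd1* read, in CPM on a linear axis, with one colored point per fish, lines joining the classes of a fish and black bars for the mean and SD over 6 and 5 fish. The classes overlap for each gene, and ENSDARG00000004049 is above 0 in 1 fish of the ccnd1-negative class, at 5.82 CPM.

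The NBN gate holds more than one kind of neuron, and the study marks them with *tubb5*, a beta-tubulin, and with *EBF3*, a transcription factor. Cells were therefore divided by these genes, neither of which is a member. A cell was tubb5-high with *tubb5* (ENSDARG00000037997) at 100 CPM or more and above *EBF3*. It was EBF3-high with *EBF3* (ENSDARG00000100244) at 100 CPM or more and at least the *tubb5* level, and the rest had both under 100 CPM. There were 81 tubb5-high cells in 6 fish, 57 EBF3-high cells and 26 cells with neither. The makeup varied between fish, with tubb5-high cells from 14.8% of the gate in the fish of batch bfx811 to 85.7% in fish 3. Sums of at least 3 cells were had in 6, 4 and 5 fish. The tubb5-high cells were the deepest, with a median of 352314 reads against 197164 and 223307. Among the cells with neither, 11 of 26 had an *olig2* read, against 3 of 81 and 2 of 57.

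Reads of *tmsb* and ENSDARG00000008803 were found in nearly all tubb5-high cells and in fewer of the others, while *marcksl1b* was read in every cell. The study names *tmsb* beside *tubb5* as a marker of one group of these cells, so its difference is not independent evidence. It also names a *MARCKS* copy as a marker of that group. Which identifier this is could not be matched, so the difference of ENSDARG00000008803 cannot be taken as independent evidence either. *tmsb* reads were found in 77 of 81 tubb5-high, 13 of 57 EBF3-high and 6 of 26 other cells. ENSDARG00000008803 was read in 81 of 81, 39 of 57 and 21 of 26 cells. At least 3 of the 5 genes were read in all 81 tubb5-high cells, in 32 of 57 EBF3-high cells and in 20 of 26 with neither. After thinning these were 81, 28 and 18 cells.

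In the tubb5-high cells of fish 1 to 5 and the fish of batch bfx811, *tmsb* had 585, 576, 526.4, 905, 600 and 635 CPM. In the EBF3-high cells of fish 2, 4, 5 and the fish of batch bfx811 it had 78.1, 78.9, 0 and 160 CPM. In the cells with neither it had 63.2, 0, 0, 0 and 71.2 CPM in fish 1, 2, 4, 5 and the fish of batch bfx811. Every tubb5-high value was above every value of the other classes. Despite this gap the unblocked fit did not call it, with log2 fold changes of -2.96 ± 0.97 for EBF3-high (edgeR, adjusted p = 0.145) and -4.45 ± 1.35 for the cells with neither (adjusted p = 0.136), each over tubb5-high. With the fish as a block the values were -3.68 ± 0.98 (adjusted p = 0.0122) and -8.75 ± 1.85 (adjusted p = 0.000433), and DESeq2 called both (adjusted p = 0.0178 and 0.0157). The size of the second depends on the sums at 0.

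ENSDARG00000008803 had 2572, 2717, 2884, 2953, 2700 and 2117 CPM in the tubb5-high cells. The EBF3-high cells had 1124, 641, 1788 and 912 CPM, all below the lowest tubb5-high value. The cells with neither had 1041, 740, 354, 2196 and 293 CPM, and fish 5 with its 3 cells was alone above the lowest tubb5-high value. The log2 fold changes over tubb5-high were -1.31 ± 0.34 for EBF3-high (edgeR, adjusted p = 0.0513) and -1.88 ± 0.45 for the cells with neither (adjusted p = 0.0673). With the fish as a block they were -1.22 (adjusted p = 0.0620) and -1.996 (adjusted p = 0.0243). Without cells with an *olig2* read the first was -1.58 (adjusted p = 0.0153).

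Within the tubb5-high cells the levels of ENSDARG00000008803 varied little between fish, at 2657 ± 298 CPM (SD, n = 6), beside 1911 ± 661 CPM for the whole gate. *tmsb* was at 638 ± 136 CPM in tubb5-high cells and 360 ± 101 CPM in the gate. Its SD was thus larger within the class, but around a higher mean, so the SDs alone do not compare its spread. The fish of batch bfx811, with the fewest tubb5-high cells, had the lowest whole-gate level of both genes. With each cell thinned to 20000 reads this did not hold for *tmsb*, with 303.7 CPM beside 262.5 CPM in fish 2. In the tubb5-high cells of the fish of batch bfx811 the level of *tmsb*, 635 CPM, was inside the range of the others. These were 4 cells, and the top cell held 60.6% of the *tmsb* reads. After thinning this level was 987.5 CPM and the highest of all fish, with fish 4 next at 911 CPM. The level of ENSDARG00000008803 in the same 4 cells, 2117 CPM without thinning, was below the range of the others. What part the makeup has in the difference between the gates was not tested.

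*marcksl1b* had 3646, 3274, 2877, 3839, 2943 and 3045 CPM in the tubb5-high cells. The EBF3-high cells had 5227, 4251, 5150 and 3125 CPM and the cells with neither had 5095, 5535, 7771, 5015 and 2705 CPM. The fish of batch bfx811 was lowest in the last 2 classes and made them overlap with the tubb5-high cells. The log2 fold changes of 0.40 ± 0.25 (edgeR, adjusted p = 0.706) and 0.47 ± 0.30 (adjusted p = 0.947) did not pass, and the second turned to -0.21 without cells with an *olig2* read. In the 16 NBN gate cells with an *olig2* read, *marcksl1b* stood at 6232 CPM.

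*marcksl1a* was at 974 ± 289 CPM in the tubb5-high cells (SD, n = 6), 743 ± 252 in the EBF3-high cells (n = 4) and 849 ± 384 in the cells with neither (n = 5), with log2 fold changes of -0.47 ± 0.43 (edgeR, adjusted p = 0.958) and -0.43 ± 0.50 (adjusted p = 0.9996). ENSDARG00000004049 was read in 32 of 81 tubb5-high cells, 4 of 57 EBF3-high cells and 4 of 26 with neither. Its levels were 101 ± 46.1, 43.4 ± 42.0 and 23.1 ± 32.8 CPM, and the ranges overlapped (edgeR, adjusted p = 0.9994 and 0.9996).

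The 2 class comparisons share the tubb5-high sums and are not independent of each other. No member was called in the unblocked fit, where 2.08% of 7996 genes were called between EBF3-high and tubb5-high cells and 0.312% of 6093 genes between the cells with neither and tubb5-high. Levels per fish were apart for 7.19% of the genes in the first comparison, among them *tmsb* and ENSDARG00000008803. They were apart for 4.04% in the second, among them *tmsb* alone of the members.

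**Figure D4:**
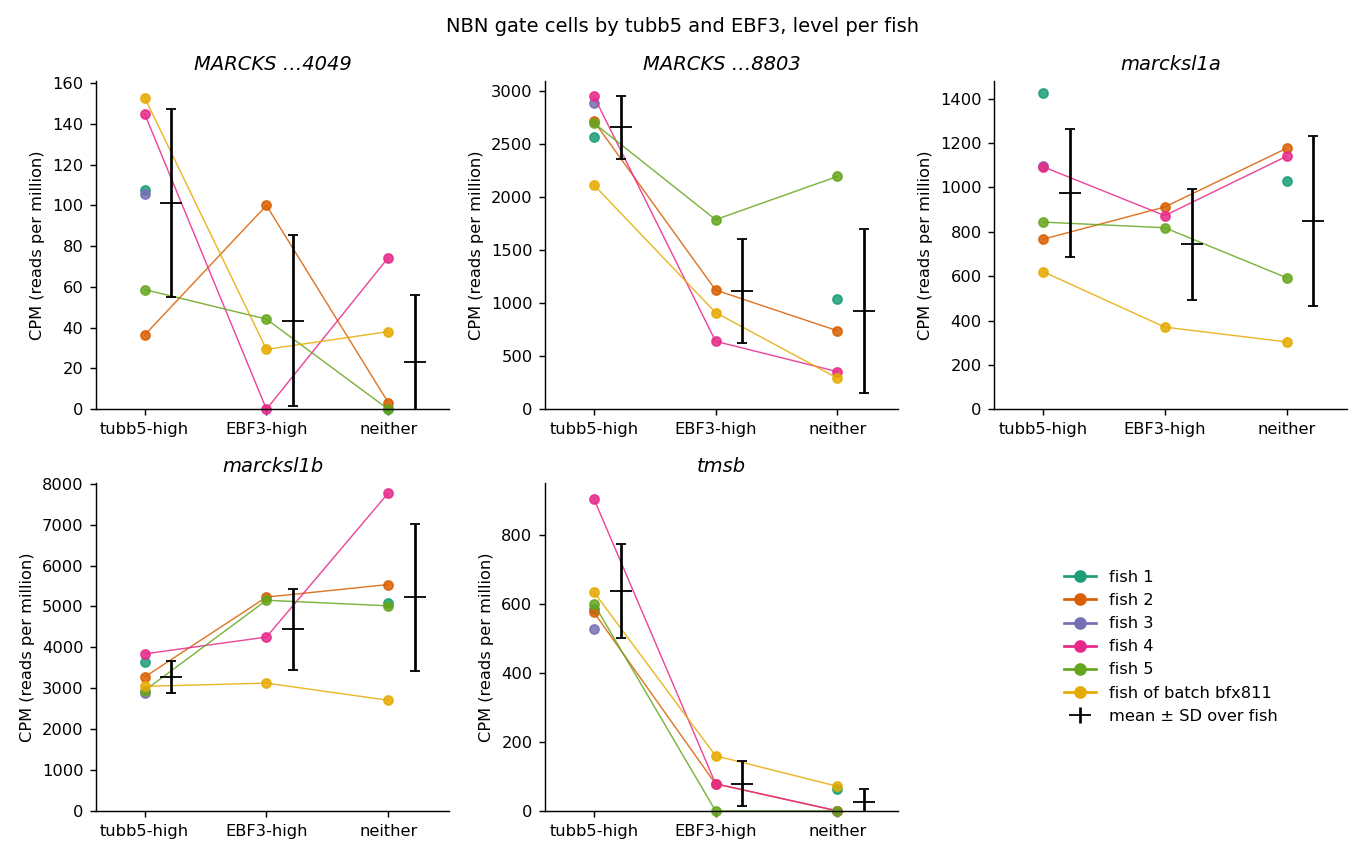
Level of the 5 genes with reads in tubb5-high, EBF3-high and other NBN gate cells, in CPM on a linear axis, with one colored point per fish and class of at least 3 cells, lines between neighboring classes of a fish and black bars for the mean and SD over 6, 4 and 5 fish. All 6 tubb5-high values of *tmsb* lie between 526.4 and 905 CPM, above all values of the other classes, while *marcksl1b* overlaps between all 3.

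**Figure D5:**
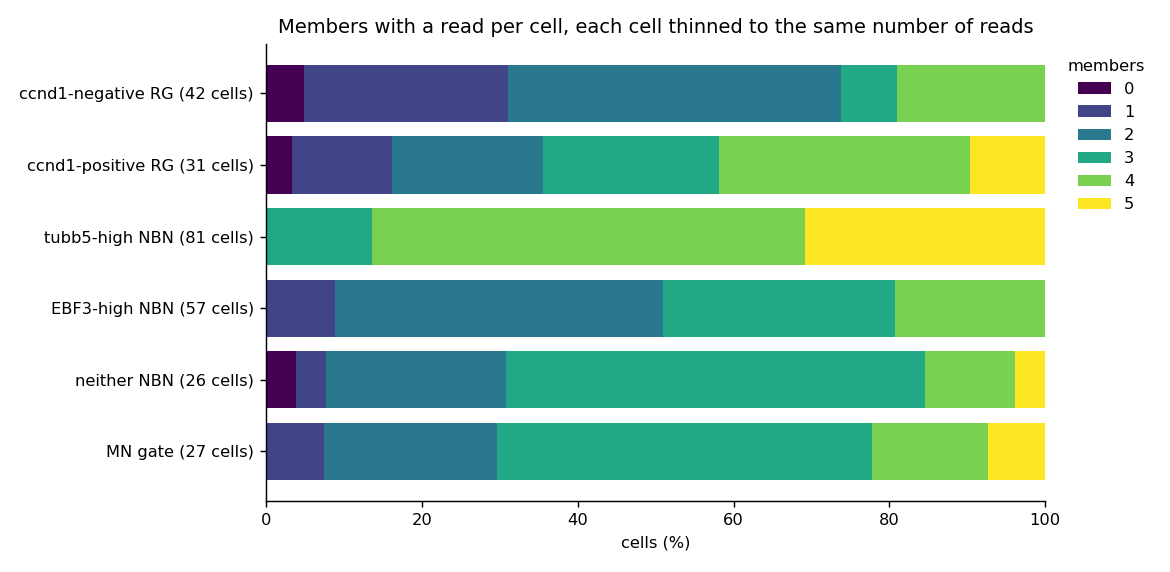
Share of cells in percent (horizontal axis) with reads of 0 to 5 of the genes with reads (colors), after each cell was thinned to 20000 reads, for the classes of the RG and NBN gates and for the MN gate. All 81 tubb5-high cells hold 3 or more, against 11 of the 42 ccnd1-negative RG gate cells.

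To place the genes, the pattern of each over the 13 sums of gate and fish was compared with that of 3265 genes at a mean of 50 CPM or more, as log2(CPM + 1). These correlations describe sums that share fish, batch, depth and gates. Nearest to ENSDARG00000008803 were *H3-3B*, a replacement histone (Pearson's r = 0.961), *UBE2E3*, a ubiquitin-conjugating enzyme (r = 0.950), and *STMN1*, a stathmin that binds tubulin (r = 0.947). Nearest to *tmsb* were *TUBA1A*, an alpha-tubulin (r = 0.918), *CAMSAP2*, which binds microtubule minus ends (r = 0.889), and *dido1* (r = 0.874). Nearest to *marcksl1b* were *SPOCK3*, a matrix proteoglycan (r = 0.950), *carmil2*, a regulator of actin capping (r = 0.948), and *LETM1*, a mitochondrial inner membrane protein (r = 0.947).

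*marcksl1a* stood with other genes. Its nearest were *cct2*, a chaperonin subunit that folds actin and tubulin (r = 0.869), *fth1a*, a ferritin chain (r = 0.855), and *cirbpb*, a cold-inducible RNA-binding protein (r = 0.851). For ENSDARG00000004049 they were *TRAF4* (r = 0.968), *APEX1*, a DNA repair endonuclease (r = 0.961), and *PTP4A1*, a phosphatase (r = 0.954). This copy was at 0 in the RG gate sums of 2 of 6 fish, so its r rests partly on sums without a read. Among the members, ENSDARG00000008803 was nearest to *tmsb* (r = 0.848) and *marcksl1b* (r = 0.816). The r of *marcksl1a* with the other members ran from 0.190 to 0.371. The level of *marcksl1a* was lowest in the fish of batch bfx811 in both the RG and NBN gates, at 262 and 383 CPM. The MN sum of that fish had 248 CPM. *cct2* had a mean of 67.3 CPM in the RG and 83.7 CPM in the NBN gate, and 21.9 CPM in that MN sum. What part the batch has in these matches was not tested.

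Lists of other outgrowth genes give the setting of the members between the RG and NBN gates, where 8.47% of all genes were called. The lists were chosen with earlier results of these data known. They hold genes the study names on these cells, such as *CD99L2*, and neuronal markers, such as *SNAP25*. Their counts are therefore a description and not independent evidence. Of 37 genes for actin monomer and filament proteins tested, 9 rose in the NBN gate, 1 fell and 27 did not pass, with a median log2 fold change of 1.55 beside 0.69 for all genes. Other beta-thymosins were among those that rose. *tmsb4x* had a log2 fold change of 1.69 ± 0.34 (edgeR, adjusted p = 0.00353), with levels that overlapped between the gates. *tmsb2* had 638 to 1089 CPM per fish in the NBN gate and at most 0.565 CPM in the RG gate. The *FSCN1* copy ENSDARG00000037747, for the actin bundler fascin, was at 0 in all RG sums and at least 453-fold higher in the NBN gate, and *ABLIM3*, for an actin-binding LIM protein, likewise at least 276-fold (against 3 reads over the RG gate). The *FSCN1* copy ENSDARG00000059680 was read in the RG gate too. Its mean was 31.5 CPM there and 845 CPM in the NBN gate (log2 fold change 4.75 ± 1.39, edgeR, adjusted p = 0.0393). *WASF3*, an activator of branched actin, fell from 264 to 23.9 CPM on average (log2 fold change -3.19 ± 0.80, adjusted p = 0.0140).

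Of 29 growth cone membrane and adhesion genes tested, 9 rose and 20 did not pass, with a median log2 fold change of 3.24. This list holds *basp1*, whose membrane protein is often grouped with GAP-43 and MARCKS, and it rose by a log2 fold change of 3.48 ± 0.49 (edgeR, adjusted p = 0.000148), from 173 to 1518 CPM on average. *NRN1*, for the surface protein neuritin, was at 0 in all RG sums and at 96.7 to 299 CPM in the NBN gate. The *SNAP25* copies, for a vesicle fusion protein, were at no more than 1.13 CPM in the RG gate and at 262 CPM or more in the NBN gate.

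Of 20 microtubule-associated genes tested, 4 rose and 16 did not pass (median log2 fold change 2.14). Those with the largest log2 fold change were *KIF21B*, a kinesin at 0 in all RG sums and at 5.58 to 55.7 CPM in the NBN gate, *DCLK1*, a doublecortin-like kinase (6.20 ± 1.57, adjusted p = 0.0152), and *maptb*, for tau (4.13 ± 0.56, edgeR, adjusted p = 9.3e-05). Protein kinase C phosphorylates MARCKS and GAP-43, and calmodulin binds both. Of 23 genes for these regulators, calcineurin and their partners, 8 rose and 15 did not pass (median log2 fold change 2.75). No protein kinase C gene was among the 8 that rose. The largest changes were those of *PCP4*, *pip5k1ca* and *NRGN*, the last a gene the study names on these cells. *PCP4*, for a calmodulin binder, went from at most 0.282 CPM to 73.5 to 341 CPM, and *NRGN*, for the calmodulin binder neurogranin, from at most 24.1 CPM to 73.5 to 428 CPM. *pip5k1ca*, for a phosphoinositide kinase, had 9.91 to 52.2 CPM in the NBN gate. The genes of these lists at 0 in all RG sums lay above the medians at their bound too. The medians could therefore not move, and that they did not is no check on them.

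Between the ccnd1 classes no gene of the 4 lists passed, of 18, 17, 12 and 9 tested. Between EBF3-high and tubb5-high cells 3 of 38 actin genes were lower in the EBF3-high cells, where 2.08% of all genes were called. *actb1* had 825 to 1461 CPM in the EBF3-high and 3907 to 6503 CPM in the tubb5-high cells (log2 fold change -2.19 ± 0.29, edgeR, adjusted p = 0.000291), and *actb2* was lower by -1.19 ± 0.22 (adjusted p = 0.00600). The third was *ABLIM1* (ENSDARG00000060149), at no more than 0.548 CPM in EBF3-high cells and at 0 to 243 CPM in tubb5-high cells, so that the levels overlapped. Of 31 growth cone genes, *SNAP25* (ENSDARG00000020609) was higher in the EBF3-high cells (log2 fold change 1.74 ± 0.35, adjusted p = 0.0115). *CD99L2*, an adhesion gene the study names on these cells, was lower (-4.05 ± 0.85, adjusted p = 0.0137). Of 21 microtubule genes *MAP1A*, for a protein that binds microtubules, was higher in EBF3-high cells (1.89 ± 0.46, adjusted p = 0.0368), and none of 23 kinase C and calmodulin genes passed. In the cells with neither, *actb2* was the only gene of the 4 lists past the threshold (-1.40 ± 0.25 over tubb5-high, edgeR, adjusted p = 0.0151).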

How the data were processed

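Raw read counts per Ensembl gene (release 87) were deposited by the authors for all 370 cells as whole numbers without normalization. Per the labels and methods, single-end reads were aligned with GSNAP 2017-08-15 to GRCz10 and counted with featureCounts 1.5.3. All columns were used (0 left out). Symbols came from an Ensembl table and matched 26433 identifiers. Cells were kept with log10 total reads above 4.5, log10 genes with over 1 read between 2.7 and 3.9, under 50% of reads in the top 50 genes, under 20% mitochondrial reads and over 20% mapped. The spike-in filter was not run. Reads were summed per fish and class (at least 3 cells) and tested with edgeR 4.0.16 (R 4.3.3; TMM, filterByExpr, quasi-likelihood, Benjamini-Hochberg over all genes tested, threshold 0.05). The SE is the absolute log2 fold change over the square root of F. The study tested single cells with a rank-sum test; cells of a fish are not replicates, so sums were tested. Shares per fish were compared by an exact sign-flip test (scipy 1.17.1). DESeq2 1.42.0, other size factors, no filter, thinning to 20000 reads and leaving out each fish were alternatives.

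The number in the titles was read as the fish, which pairs the gates of an animal, and batch bfx811 was taken as 1 fish. The titles do not say what the number counts. The correlation of RG and NBN deviations within a fish ran from -0.0446 to 0.119 over 2000 genes. The label for the fish has 4 values that follow plates, and was used as an alternative for the levels between the RG and NBN gates alone. The tests of shares and of the cell classes rest on the number in the titles, and batch bfx811, read as fish. Where nothing else says so, the fish are the only biological replicates. Every member was named, with the 3 genes most alike by Pearson's r over 13 sums and up to 3 called genes per outgrowth list and direction. The *ABLIM1*, *basp1* and *tmsb4x* values and those of the *FSCN1* copy ENSDARG00000059680 were added to these for their place in the lists or family. The members and lists were chosen with earlier results of these data known. The tests were checked on simulated data with changes larger than those of the members between the gates, which leaves smaller changes unchecked. Sequences of the genes are not shown.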

Additional observations from a re-analysis of the deposited data

Results flagged for a closer look

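In groups of 4 to 6 fish, 3 of 35 member levels tested had 1 fish far from the others by Dixon's criterion, where chance marks about 1 in 20. *tmsb* in the tubb5-high cells was highest in fish 4, at 905 CPM, while the other 5 fish held between 526.4 and 635 CPM. *marcksl1b* in the ccnd1-positive RG gate cells was highest in fish 1, at 1742 CPM from 3 cells. ENSDARG00000004049 in the ccnd1-negative cells was above 0 in fish 4 alone, at 5.817 CPM from 1 cell.

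RG gate cells that failed the filters entered no comparison, and their reads of the members were counted apart. They held 363.2 CPM of *marcksl1a*, 380.1 CPM of *marcksl1b*, 17.87 CPM of *tmsb* and 7.207 CPM of ENSDARG00000008803. The RG gate cells that passed held 772, 1243, 117 and 358 CPM of these genes.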

How the results depend on the processing

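Between the gates, ENSDARG00000008803 and *marcksl1b* were called under each of the 15 alternatives (log2 fold change 2.09 to 3.03 and 1.52 to 1.99), and no other member was. No member was called between the ccnd1 classes in any alternative. Calls between the gates numbered 711, 1090 with DESeq2 and 1232 without the filter. Between ccnd1 classes they numbered 2, then 21 with DESeq2, 16 without the filter, 15 with the fish as a replicate block, 29 with failed cells, 1 with classes from thinned reads, and 2 to 6 without 1 fish.

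For EBF3-high cells the 166 calls became 606 with DESeq2, 281 without the filter, 319 after thinning and 60 to 265 without 1 fish. For the cells with neither the 19 calls became 180 with DESeq2, 144 without the filter, 80 with the replicate block, 150 after thinning, 69 at 500 CPM, 54 without *olig2* cells, and 6 to 144 without 1 fish, the most without the fish of batch bfx811. Of these calls 3 of 19 were higher, and 6 of 20 with the other size factors. The block changed no member call beyond those given beside the results.

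ENSDARG00000008803 passed in EBF3-high cells under 8 of 13 alternatives (adjusted p 0.00844 to 0.266) and in the cells with neither under 5 of 13 (0.0125 to 0.232). *tmsb* passed under 5 and 4 of 13 (0.00709 to 0.323 and 0.000433 to 0.326). Without fish 5 the adjusted p in EBF3-high cells was 0.0260 for ENSDARG00000008803 and 0.0381 for *tmsb*. Without the fish of batch bfx811 it was 0.00844 for ENSDARG00000008803, and 0.0306 in the cells with neither. *marcksl1b* turned to -0.21 there without *olig2* cells.

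With 5 fish no share can pass, and p was 0.0625 for the 3 shares that passed with 6. Without 1 fish the difference in points ran from 14.5 to 20.6 for ENSDARG00000004049, 34.8 to 48.5 for ENSDARG00000008803 and 16.4 to 20.4 for *marcksl1b*. For *marcksl1a* between gates it ran from -5.67 (without fish 1, a turn in sign) to 3.15. Between ccnd1 classes it was -2.73, turned to 0.0758 after thinning and ran from -9.66 to 9.09 without 1 fish (9.09 without fish 5, 0.189 without that of batch bfx811). The MN over NBN ratio after thinning was 0.586 for *marcksl1a* and 0.317 for *tmsb*. The causes were not tested. The RG gate level of ENSDARG00000004049 rests on 6 cells with a read.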
